A study of Mus musculus with 6 samples.

Results

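Of the 21418 protein-coding genes that GENCODE M1 places on the 19 autosomes of the mouse assembly mm9, 9125 (42.6%) had no peak of H3K27ac, H3K4me3 or Pax5 at any transcript start in pre-B cells. These genes were chosen by that absence: for none of their annotated transcript starts did a row of the H3K27ac list, a region of the H3K4me3 list or a row of the Pax5 list lie within 1 kb. A region of the H3K4me3 list is a joined stretch of the 25 bp bins that the list holds. The threshold behind these bins is unknown, and regions are called peaks here for brevity. The other 12293 genes had a peak at a start and are called genes with a start peak here. Because the members were selected on the 3 lists, their distances to peaks and the peaks in their bodies are given as a description with no test, and the share of 42.6% is the level against which the share of each gene family is to be read.

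Pre-B cells came from the bone marrow of C57BL/6 mice of both sexes, aged 6 to 14 weeks, that were RAG-/- µ+, meaning that they lack the recombinase and carry an already rearranged IgM transgene. All libraries share this genotype, so the cells cannot rearrange their own antigen receptor genes, and the transgene stands in for an endogenous heavy chain. Each of the 3 lists comes from 1 ChIP library, and 3 input libraries of the same cells were not used here. No value below therefore has a replicate error, the depth behind the lists is unknown, and the absence of a peak means only that the list holds none.

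Trimethylation of histone H3 at lysine 4 marks the start sites of genes that are transcribed or poised, and acetylation of lysine 27 marks active promoters and enhancers. Pax5 is the transcription factor that commits cells to the B lineage. Promoters of mammals fall into a kind rich in CpG dinucleotides, common at genes used in most cells, and a CpG-poor kind, common at genes used in few cell types, some of which carry a TATA box.

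The start sequences show both kinds among the genes without a start peak. The first 3 are the starts whose CpG ratio lay nearest to the median of the members in the 3 largest families by name, which are the olfactory receptors, the vomeronasal receptors and the solute carriers, taken from genes annotated to start before the coding sequence. The CpG ratio is the observed over the expected number of CpG dinucleotides in the 250 bases before and the 50 bases from the start. Capitals mark each CpG, and all sequences are read 5′ to 3′ on the strand of the gene. Olfr449 (chr6:42787601-42787900, plus strand) and Vmn1r237 (chr17:21450677-21450976, plus strand) each hold 1 CpG, and Slc23a3 (chr1:75130415-75130714, minus strand), which belongs to the nucleobase and ascorbate transporter family, holds 6.
Olfr449: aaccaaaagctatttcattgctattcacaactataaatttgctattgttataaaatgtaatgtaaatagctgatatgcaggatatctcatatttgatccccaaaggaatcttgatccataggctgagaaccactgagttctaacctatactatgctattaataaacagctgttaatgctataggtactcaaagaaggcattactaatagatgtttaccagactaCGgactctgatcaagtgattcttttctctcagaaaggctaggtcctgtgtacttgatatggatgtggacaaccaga
Vmn1r237: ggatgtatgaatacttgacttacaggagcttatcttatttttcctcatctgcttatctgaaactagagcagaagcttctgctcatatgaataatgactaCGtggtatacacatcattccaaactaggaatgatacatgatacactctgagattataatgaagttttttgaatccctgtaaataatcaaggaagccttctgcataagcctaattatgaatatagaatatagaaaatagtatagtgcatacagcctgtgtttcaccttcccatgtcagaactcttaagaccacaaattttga
Slc23a3: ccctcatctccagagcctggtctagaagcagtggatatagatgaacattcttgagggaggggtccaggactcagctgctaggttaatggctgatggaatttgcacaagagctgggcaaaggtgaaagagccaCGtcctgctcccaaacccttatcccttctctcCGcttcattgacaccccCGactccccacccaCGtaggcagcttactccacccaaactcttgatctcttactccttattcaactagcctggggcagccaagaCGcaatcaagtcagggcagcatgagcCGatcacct

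The 2 starts below have the highest CpG ratios of all genes without a start peak. B3galnt1 (chr3:69402734-69403033, minus strand), which codes for a glycosyltransferase, has 46 CpG and a ratio of 1.29, and Fam169a (chr13:97841348-97841647, plus strand) has 67 CpG in 300 bases. Their nearest peaks of any list lay 32.3 kb and 58.3 kb away.
B3galnt1: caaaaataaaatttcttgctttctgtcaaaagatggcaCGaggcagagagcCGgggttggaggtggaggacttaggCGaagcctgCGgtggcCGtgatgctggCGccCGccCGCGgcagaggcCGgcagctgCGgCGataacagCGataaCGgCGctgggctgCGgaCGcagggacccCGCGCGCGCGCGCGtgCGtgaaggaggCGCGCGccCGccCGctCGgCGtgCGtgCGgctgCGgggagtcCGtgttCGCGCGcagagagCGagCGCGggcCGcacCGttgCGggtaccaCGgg
Fam169a: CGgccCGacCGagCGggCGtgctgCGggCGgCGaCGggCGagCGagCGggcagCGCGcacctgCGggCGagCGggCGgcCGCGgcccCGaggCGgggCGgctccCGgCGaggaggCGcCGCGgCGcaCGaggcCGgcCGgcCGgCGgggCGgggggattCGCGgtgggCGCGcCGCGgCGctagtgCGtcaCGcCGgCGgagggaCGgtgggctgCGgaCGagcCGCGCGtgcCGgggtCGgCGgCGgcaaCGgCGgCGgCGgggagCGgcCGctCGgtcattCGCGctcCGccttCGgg

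For contrast, the start of Cd79a (chr7:25682150-25682449, plus strand), a signalling chain of the B cell receptor, lay inside peaks of all 3 lists. Cd79a is CpG-poor with a ratio of 0.284, almost that of Slc23a3 (0.289), so CpG-poor starts occur on both sides of the division.
Cd79a: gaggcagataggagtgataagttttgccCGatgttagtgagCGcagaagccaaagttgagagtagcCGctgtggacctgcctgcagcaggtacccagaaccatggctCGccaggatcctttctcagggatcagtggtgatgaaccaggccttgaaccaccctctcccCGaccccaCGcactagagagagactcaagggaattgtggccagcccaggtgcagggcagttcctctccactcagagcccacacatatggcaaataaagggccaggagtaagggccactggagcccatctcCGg

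A TATA box was common in some of the families without a start peak. The start of Sprr2e (chr3:92155815-92156114, plus strand), a small proline-rich protein of the cornified envelope of skin, is shown with the motif TATAAA in capitals, which begins 29 bases before the start.
Sprr2e: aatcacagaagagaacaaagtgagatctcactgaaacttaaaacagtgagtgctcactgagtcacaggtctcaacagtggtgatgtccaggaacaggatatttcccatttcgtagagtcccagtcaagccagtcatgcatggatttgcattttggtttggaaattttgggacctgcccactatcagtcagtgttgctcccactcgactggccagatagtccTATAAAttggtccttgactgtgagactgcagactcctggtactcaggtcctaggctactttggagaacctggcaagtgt

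Families named by a shared prefix divided sharply. The 99 prefixes with at least 20 genes hold 6065 genes, of which 3041 lacked a start peak. In 11 of these prefixes at least 90% of the genes lacked one, 1713 of 1725 genes in all, and in 22 at most 10% did, 29 of 722 genes. The remaining prefixes lay between. The first group is Olfr, Vmn, Krtap, Krt, Defb, Tas, Klk, Prl, Mup, Pcdhb and Ces.

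**Figure D1:**
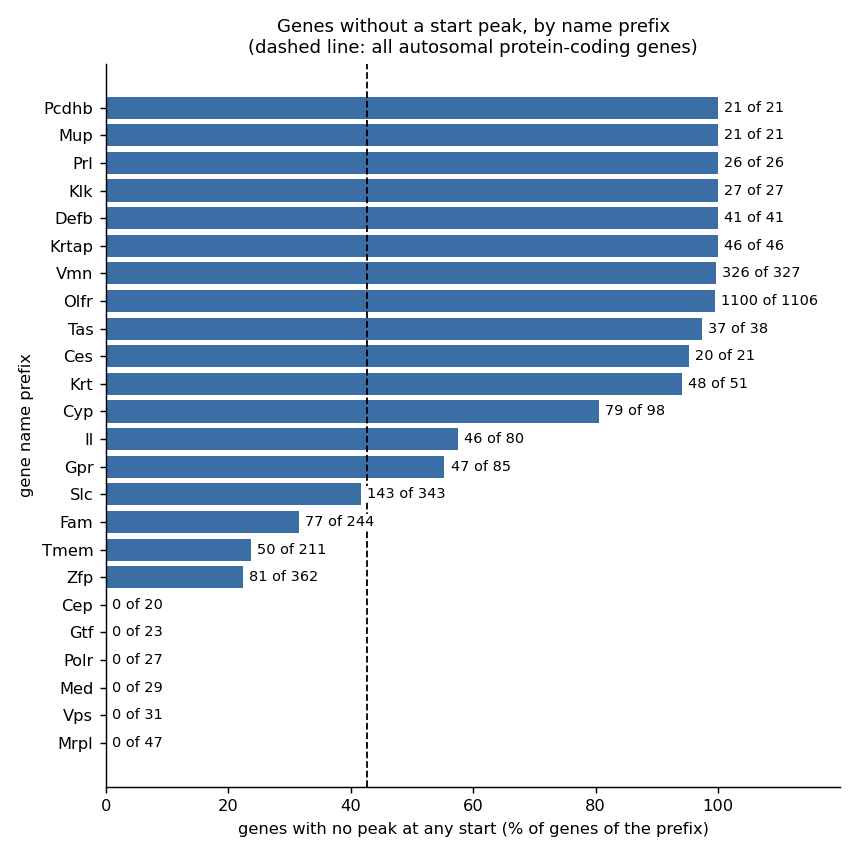
Share of genes with no peak at any start (x axis, % of the genes of a prefix) for the 10 name prefixes with the most such genes, the 11 prefixes with at least 90% and the 6 prefixes with none, with counts beside the bars. The dashed line is the share over all autosomal protein-coding genes, 42.6%, and Olfr and Vmn stand near 100% while Mrpl, Vps and Med stand at 0.

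The olfactory receptors, which olfactory neurons use to detect odorants, were the largest family. No start peak was found at 1100 of 1106 Olfr genes (99.5%), and they made up 12.1% of all genes without one. Of the vomeronasal receptors, which sense pheromones, 202 of 203 Vmn1r genes and all 118 Vmn2r genes lacked a start peak, as did all 35 Tas2r bitter taste receptors. An alignable start, a measure of sequence uniqueness defined further on, was present in 55.2% of Vmn members and 93.55% of Olfr members. Among genes with such a start, 180 of 181 Vmn genes and 1029 of 1034 Olfr genes lacked a start peak. Together Olfr and Vmn genes account for 26.5% of the 4039 members with a CpG ratio below 0.2.

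The 6 Olfr genes with a start peak all had H3K27ac there, and none had H3K4me3. H3K27ac peaks covered a start of Olfr433, Olfr212 and Olfr56 and lay 72, 227 and 295 bp from a start of Olfr314, Olfr1509 and Olfr272. Pax5 lay at a start of Olfr56 and 549 bp from that of Olfr1509. The nearest H3K4me3 regions of these 6 genes were between 12086 and 133999 bp away. Vmn1r90, the only Vmn gene with a start peak, had H3K27ac at 304 bp and no other list within 1298365 bp. These exceptions rest on the H3K27ac list, and without that list 99.8% of Olfr genes and 100% of Vmn genes had no start peak.

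Other families with few or no start peaks were smaller. All 46 Krtap genes, 48 of 51 Krt genes, which code for keratins, all 41 Defb genes of beta-defensin antimicrobial peptides, all 27 Klk kallikrein proteases, all 26 Prl genes of the prolactin family, all 21 Mup major urinary proteins and all 21 Pcdhb protocadherins lacked a start peak. Among smaller prefixes so did all 18 Lce and all 16 Sprr genes of the cornified envelope, all 12 Defa defensins, all 11 Ifna interferons and all 5 Csn caseins. The 3 Krt exceptions were unlike one another: Krt222 had all 3 lists at a start, Krt80 had H3K27ac only, and Krt18 had H3K4me3 only.

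Large families of mixed use stood near or below the background. Of the Slc solute carriers 143 of 343 (41.7%) lacked a start peak, of the Fam genes 77 of 244 (31.6%), of the Tmem transmembrane proteins 50 of 211 (23.7%), and of the Zfp zinc finger proteins 81 of 362 (22.4%). The Slc share is close to 42.6% and so says nothing particular about these transporters as a whole. Its larger subfamilies differed, from 6 of 41 Slc25a genes (14.6%) to 11 of 13 Slc5a genes (84.6%). Cyp genes, which code for cytochrome P450 enzymes, were above 42.6% with 79 of 98 (80.6%), all 15 Cyp2c genes and all 9 Cyp3a genes among them. Also above 42.6% were Gpr orphan receptors with 47 of 85 (55.3%) and Il genes of interleukins and their receptors with 46 of 80 (57.5%).

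At the other end 6 prefixes of at least 20 genes held no member. None of the 47 Mrpl genes of the mitochondrial ribosome, the 31 Vps genes of vesicle sorting, the 29 Med genes of the Mediator complex, the 27 Polr genes of the RNA polymerases, the 23 Gtf genes of general transcription factors or the 20 Cep genes of the centrosome lacked a start peak. Only 2 of 67 Hist genes, 2 of 55 Eif genes and 5 of 63 Rab genes did. The 2 Hist genes were Hist1h2ba and Hist1h2aa, which are testis variants, and Ddx4, a germ cell helicase, and Eif4e1b, an oocyte form of a cap-binding protein, were also among the 29. Of those 29 genes, 6 have 1 exon, such as Ap3s1-ps2 and Mrps36-ps1, whose names mark them as pseudogenes.

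Ribosomal protein genes appeared on both sides. Of the 84 Rpl genes 41 (48.8%) lacked a start peak, but 95.1% of these 41 have 1 exon and only 36.6% have an annotated 5′ untranslated region, and 19.5% have an alignable start, a measure of sequence uniqueness defined further on. Retained as protein-coding by this annotation, such intronless copies differ in structure from Rplp0, a ribosomal stalk gene with all 3 lists at its start. For near-identical copies the reads of 1 copy can be placed at another or be discarded, which was not tested.

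Unnamed genes took up a large part. The 2279 members with Gm, Rik or clone names were 25.0% of all members, and 83.9% of the 1858 Gm models lacked a start peak against 38.1% of the 17975 genes with other names. Of the Gm members 40.1% have 1 exon, and 49.4% have a 5′ untranslated region.

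Genes known from single tissues were mostly without a start peak, as counted over 24 lists of marker genes taken from general knowledge. None of the 12 ubiquitous genes and 1 of 21 annotated B lineage genes lacked one, and the other 20 had a peak of at least 1 list at a start. The B lineage exception was Ms4a1, which codes for CD20, a B cell surface protein. Its nearest peaks were Pax5 at 22.5 kb, H3K27ac at 26.6 kb and H3K4me3 at 26.8 kb, and its body held none. It stood in a run of 8 neighbouring genes that all lacked a start peak.

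No start peak was found at any of 12 liver, 10 epidermis, 9 pituitary, 8 pluripotency, 8 intestine or 7 kidney genes. Alb, the serum albumin gene, was 93.5 kb from its nearest peak, and Apoa2, an apolipoprotein gene, was only 1.61 kb from one. Ins1, an insulin gene, was 714.9 kb away, and the casein gene Csn1s1 was 842.8 kb away. Gh, the growth hormone gene, had H3K27ac at 1.14 kb, just outside the limit.

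The lists of tissue genes also had exceptions, often with H3K27ac alone. Tnnt3, Tnni2 and Tnnt2, which code for troponins of muscle, had H3K27ac at a start, as did Lalba, the milk lactalbumin, and Adipoq, the adipocyte hormone adiponectin. The nearest H3K4me3 region to any of these 5 genes was 17.4 kb away, at Tnni2. Of 12 testis genes, Dazl had H3K4me3 and H3K27ac at its start, and of 8 oocyte genes Gdf9 had all 3 lists.

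Genes of other blood lineages behaved differently from each other. Of 14 T cell genes 9 lacked a start peak, among them Cd3e, Cd3d and Cd3g of the T cell receptor complex, the coreceptors Cd4, Cd8a and Cd8b1, and the kinase Zap70. Zap70 had 5 peaks in its body, 1 of H3K27ac, 3 of H3K4me3 and 1 of Pax5, and Cd3d had 1 of each. In contrast only 5 of 15 myeloid genes and 1 of 10 erythroid genes lacked a start peak. H3K27ac lay at the start of 9 genes in each of these 2 lists, including the globin genes Hba-a1 and Hbb-b1 and the granulocyte gene Mpo, while Pax5 lay at none. Whether other marrow cells contributed these peaks was not tested, and these genes are outside the members because of them.

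The exceptions among developmental regulators mostly had H3K4me3 without H3K27ac. Of 23 genes 16 lacked a start peak, and of the 7 others all had H3K4me3 at a start. Of these, 1, Foxa1, had H3K27ac and 1, Nkx6-1, had Pax5. H3K4me3 without H3K27ac was also found at starts in other lists, at Tcf7, Gata3, Cebpa, Gad1, Foxj1 and Comp. Among the 16, Pax3, Bmp4 and Tbx5 had H3K4me3 at 2.59, 2.24 and 3.23 kb from a start, with H3K27ac no nearer than 189.7 kb. For Pax3 a Pax5 row lay nearer, at 2.04 kb. Hox genes, which pattern the body axis, were without a start peak in 10 of 10 Hoxb, 9 of 9 Hoxd and 8 of 9 Hoxc genes, but in only 3 of 12 Hoxa genes. All 6 Irx and 13 of 14 Nkx homeobox genes, 15 of 19 Wnt and 15 of 20 Fgf signalling genes lacked one as well.

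The genes without a start peak lay next to each other. The gene after a member on the chromosome was also a member in 62.8% of cases, whereas the gene after one with a start peak was a member in 27.7%. Unbroken runs numbered 3406, and 7231 members (79.2%) stood in a run of at least 2, 4227 (46.3%) in a run of at least 5 and 2889 (31.7%) in one of the 112 runs of at least 10 genes. A run of at least 20 held 22.0% of the members, and 1894 members (20.8%) stood alone between genes with a start peak. Adjacent members were on the same strand in 61.5% of pairs, against 44.6% of adjacent genes with start peaks.

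The longest run was the large olfactory receptor cluster of chromosome 2, from Lrrc55 to Olfr1272 (mm9, 85002491 to 90122730). It holds 226 genes, of which 221 are Olfr genes, and in its 5.12 Mb there were 1 H3K27ac row, 1 H3K4me3 region and no Pax5 row. The fifth, from Olfr557 to Olfr67 on chromosome 7 (109846730 to 110940344), has 62 Olfr among 64 genes and held 1 H3K27ac row. Of their genes 96.5% and 93.8% have an alignable start, as defined further on.

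The second run, from Gm2888 to Gm10128 at the proximal end of chromosome 14 (3030002 to 8476486), is of another kind. Its 118 genes are 114 Gm models and 4 Rik genes, its 5.45 Mb held no row of any list, and 0% of its genes have an alignable start. The third, from 2210010C17Rik to Vmn1r183 on chromosome 7 (20522654 to 24840710), holds 64 Vmn among 109 genes and 2 H3K27ac rows, and 10.1% of its genes have an alignable start. For these 2 runs the lack of peaks and the lack of unique sequence cannot be told apart.

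The fourth run was the type I keratin cluster of chromosome 11, from Krt24 to Krt42 (99141273 to 100131185). Its 82 genes, 26 Krt, 22 Krtap and 33 Gm genes among them, lie within 0.990 Mb with 2 H3K27ac, 1 H3K4me3 and 2 Pax5 rows, and 80.5% have an alignable start. Krt10, a keratin of the upper epidermis that lies in this run, held 2 H3K27ac rows, 1 H3K4me3 region and 1 Pax5 row in its body.

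**Figure D2:**
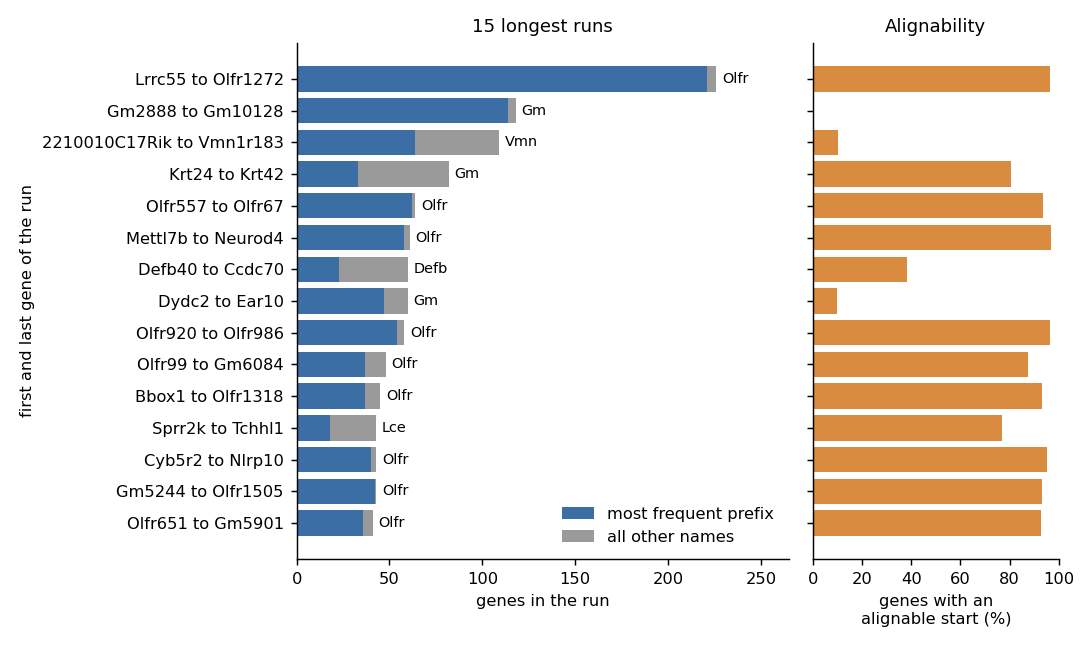
The 15 longest runs of neighbouring genes without a start peak, with the number of genes in each run (left, split into the most frequent name prefix, printed at the bar, and all other names) and the share of its genes with an alignable start (right, %). The longest run has 226 genes, and the runs rich in Olfr genes have an alignable share of at least 87.5% while the run from Gm2888 to Gm10128 has 0%.

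Other runs followed tissue clusters. The run from Sprr2k to Tchhl1 on chromosome 3 joins 18 Lce, 6 Flg and 5 Sprr genes of the epidermal differentiation complex over 1.04 Mb with no row of any list. The run from Ugt2b34 to Igj on chromosome 5 holds 9 Ugt genes of glucuronidation and the 5 caseins, and it ends at Igj, the J chain gene of antibody-secreting plasma cells. The run from Nrsn1 to Prl5a1 holds 23 Prl genes, the run from Slc46a2 to Zfp37 holds 21 Mup genes, and the Hoxd cluster formed a run of 11 genes from Evx2 to Hoxd1 with 1 Pax5 row and no row of either histone mark.

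In all, the runs of at least 10 genes covered 166.2 Mb, with 240 H3K27ac rows, 64 H3K4me3 regions and 75 Pax5 rows. That is 1.44, 0.385 and 0.451 per Mb, against 27.7, 9.11 and 6.14 per Mb over all autosomes. The runs were defined by lists at starts, so a lower density was to some extent fixed by the choice. Density varied widely among the runs, and many held rows. The run from Gm4553 to 6330512M04Rik had the most H3K27ac rows per Mb, with 9 in 0.209 Mb (43.1 per Mb). The run from Gm8112 to AU041133 had 10 H3K27ac rows, 4 H3K4me3 regions and 9 Pax5 rows in 0.458 Mb. The run from Hbb-bh2 to Olfr649, which includes 3 Hbb genes of the beta-globin family, had 11 H3K27ac rows in 0.357 Mb (30.8 per Mb). The run from Hoxb9 to Skap1 had 7 H3K27ac rows and 9 H3K4me3 regions in 0.488 Mb.

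Chromosomes differed as well. The share without a start peak ran from 34.5% of genes on chromosome 11 to 56.0% on chromosome 14, with 54.2% on chromosome 7. With Olfr, Vmn and Gm genes set apart the range was 28.0% to 41.6%.

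Most members were far from any peak. The median distance from the nearest start to the nearest row of any list was 48.6 kb, with 10% of genes below 4.76 kb and 10% above 514.7 kb. By list the median was 60.2 kb to H3K27ac, 85.2 kb to H3K4me3 and 94.3 kb to Pax5. The medians were 220.7 kb for Olfr and 214.6 kb for Vmn genes, and 31.8 kb for the 5420 members with neither those nor Gm, Rik or clone names. A distance over 500 kb was found for 948 genes (10.4%), and the 5 farthest, from Gm2888 at 5568.4 kb to D830030K20Rik at 5373.9 kb, all lie in the unalignable run of chromosome 14.

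**Figure D3:**
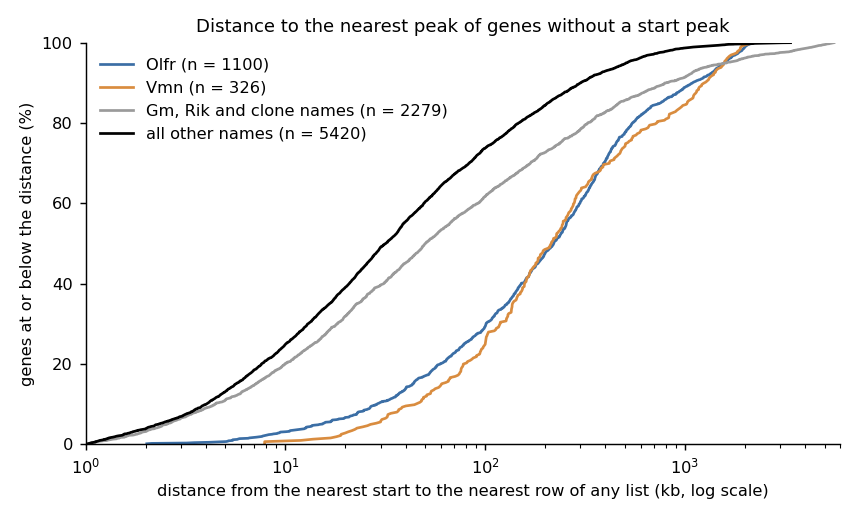
Cumulative share of genes without a start peak (y axis, %) by distance from their nearest start to the nearest row of any list (x axis, kb, log scale), for Olfr, Vmn, unnamed and other genes. The Olfr and Vmn curves lie to the right, with medians of 220.7 and 214.6 kb, and the curve of other named genes has a median of 31.8 kb.

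Few genes lay close to the limit of 1 kb. Between 750 and 1000 bp from a peak there were 87 genes, which were not members, and between 1000 and 1250 bp there were 82, which were. Only 277 members (3.04%) lay between 1 and 2 kb. Just outside were Lnx1 at 1010 bp, AF064781 at 1011 bp, Chrna9, a nicotinic receptor subunit, at 1012 bp, 8430408G22Rik at 1014 bp and Agrp, an appetite peptide of the hypothalamus, at 1025 bp. Just inside were AY702103 at 995 bp, Ankrd49 at 993 bp, Tlr1, a receptor of bacterial lipopeptides, at 992 bp, and Rnf151 and Gp5, both at 988 bp.

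A minority of the members had peaks elsewhere in the gene. A row of any list that overlapped the gene but lay more than 1 kb from each of its starts was found for 1036 of 9125 genes (11.4%), against 5744 of the 12293 genes with a start peak (46.7%). The share of the members rests partly on the H3K27ac list, and it was 7.55% with members and bodies called without that list and 7.36% with a window of 5 kb. H3K27ac lay in the body of 804 members (8.81%), H3K4me3 in that of 365 and Pax5 in that of 428 (4.69%). H3K27ac alone was the most frequent combination with 418 genes, followed by all 3 lists with 142, H3K27ac with Pax5 with 140 and Pax5 alone with 113. Per Mb of body the members held 8.96 rows and the genes with a start peak 59.99.

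The members are also shorter. Genes without a start peak had a median length of 7.21 kb, the others 22.5 kb. In genes of 10 to 20 kb the share with a body row was 15.3% against 37.4%, and in genes over 200 kb it was 31.9% against 86.0%. In each of the 8 length classes the share was lower in the members.

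**Figure D4:**
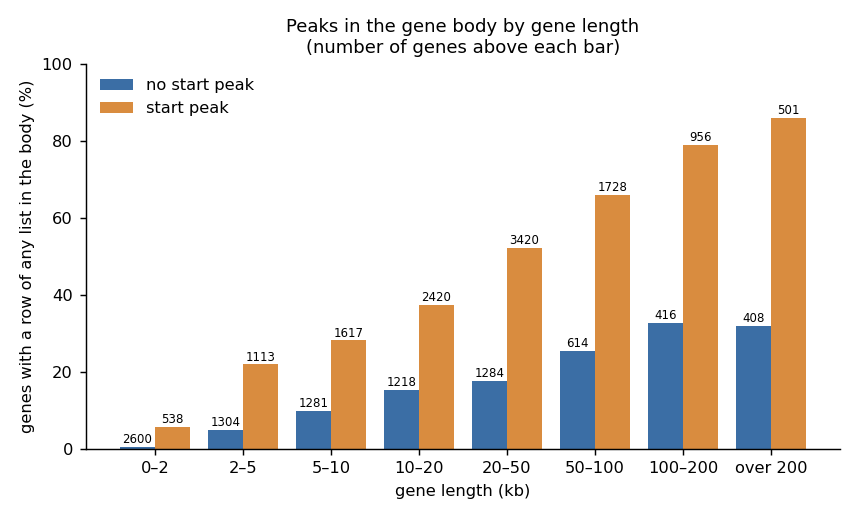
Share of genes with a row of any list in the body (y axis, %) by gene length (x axis, kb), for genes without and with a start peak, with the number of genes above each bar. Both shares rise with length, to 31.9% and 86.0% over 200 kb, and the bar of the genes without a start peak is the lower one in each class.

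Some of the body rows belong to the start of another gene. Of the 3301 pairs of a member and a row in its body, 12.4% lay within 1 kb of the start of another annotated gene, with a higher share for H3K4me3 (23.7%) than for H3K27ac (9.25%) or Pax5 (12.8%). Without them 947 members (10.4%) still had a row in the body. H3K4me3 regions in the bodies had a median width of 275 bp, against 650 bp for the others on autosomes. The median score was 8.02 against 8.53 for H3K27ac and 173.3 against 210.5 for Pax5, on the scales of the deposited lists. Of the rows with their midpoint in the gene, 12.4% for H3K27ac, 29.0% for H3K4me3 and 20.2% for Pax5 had it in an exon.

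The members with the most H3K27ac rows in the body were Gm2792 with 26, Tnrc6b and Zdhhc19 with 23 each, AF064781 with 21 and Hdac4 with 20. Tnrc6b codes for a protein of microRNA silencing, Zdhhc19 for a palmitoyltransferase and Hdac4 for a histone deacetylase. The Hdac4 counted here spans chr1:93829334-94044970, and a separate member of the same name lies at chr1:93825362-93827753. Names are shared in this way by 268 genes. Whether the annotation holds the true starts of Tnrc6b and Hdac4 was not tested. None of the 20 rows of Hdac4 and none of the 23 of Tnrc6b was at the start of another gene, whereas 6 of the 26 rows of Gm2792 were. The nearest peaks to their starts were at 17.4 kb for Hdac4, 14.8 kb for Tnrc6b and 2.33 kb for Zdhhc19.

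Wdr66 had the most H3K4me3 regions in its body with 12, followed by Adora3, an adenosine receptor, with 8 and 9030425E11Rik with 7. The most Pax5 rows were in Gm2792 with 7, AF064781 with 6 and Wdr66 with 4. The highest Pax5 score in a member, 1526.1, also belonged to Gm2792 (chr17:6475004-6477395), followed by Car11, of the carbonic anhydrase family, with 1463.6 and Hsf5, a heat shock factor of the germ line, with 1404.5. The Hsf5 row (chr11:87452402-87453083) is inside the gene, and the row of any list nearest to a start of Hsf5 lay 21.3 kb away. Those with the highest H3K27ac scores were Patl2 (179.9), Ccdc106 (155) and Gm2792 (145.3), with the row of Patl2 at chr2:121970942-121975289, which covers the start of the ubiquitous gene B2m. The single H3K27ac row of Ccdc106 and the single row of each list in Car11 also lie at the starts of other genes.

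Body rows were unevenly spread over the families. Only 1 of 1100 Olfr, 2 of 326 Vmn and none of 46 Krtap, 41 Defb, 37 Tas or 26 Prl genes had one. They were found in 32 of 143 Slc genes (22.4%), 6 of 30 Col collagen genes and 10 of 20 Atp genes, whose median length was 33.8, 90.8 and 30.6 kb, and in 4 of 19 Cdh genes of cadherins with a median of 152.1 kb. Families of similar length differed, since none of 15 Sult sulfotransferase genes with a median of 29.1 kb and only 3 of 79 Cyp genes with a median of 20.6 kb had one.

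The gene models of the members are simpler. A single transcript start was annotated for 64.4% of the members and 29.0% of the genes with a start peak, a single exon for 25.8% and 4.002%, and a 5′ untranslated region for 75.7% and 96.6%. The share without a start peak fell from 62.3% of the 9440 genes with 1 start to 8.84% of the 1052 genes with 10 or more, and a gene with more starts has more windows in which a peak can lie. Only 42.4% of Olfr members and 26.4% of Vmn members have an annotated 5′ untranslated region, so that for the others the annotated start is that of the coding sequence and the true start may lie upstream.

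CpG content, which the choice of the genes did not use, differed widely. The median CpG ratio at the start of the longest coding transcript was 0.232 for the members and 0.764 for genes with a start peak, and 71.6% against 15.8% were below 0.4. The median GC content was 48.3% against 61.0%. Of the 4821 genes with a ratio below 0.2, 83.8% lacked a start peak, of the 4158 with a ratio between 0.6 and 0.8, 19.6% did, and of the 5987 with a ratio of 0.8 or more, 9.09%. The order was the same without Olfr, Vmn and unnamed genes, with 74.0% in the lowest and 8.55% in the highest class. Genes are not independent replicates, and no test was made.

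**Figure D5:**
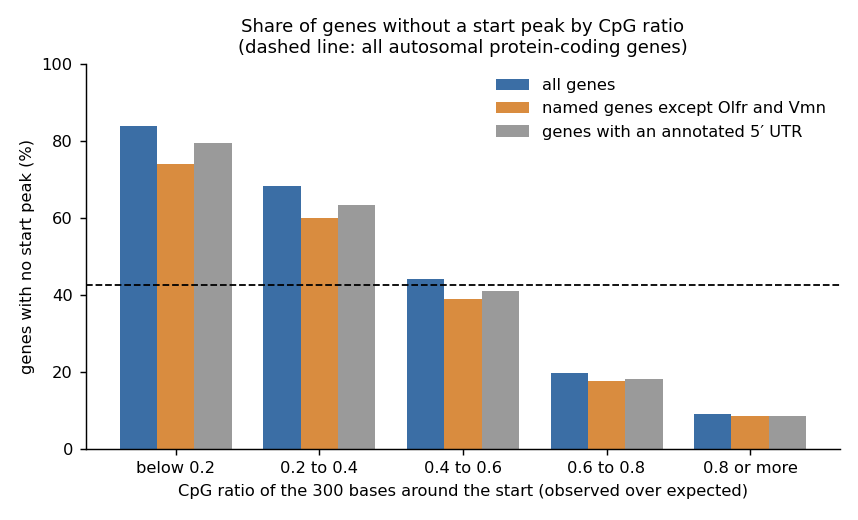
Share of genes without a start peak (y axis, %) in 5 classes of the CpG ratio of the 300 bases around the start (x axis), for all genes, for named genes except Olfr and Vmn, and for genes with an annotated 5′ untranslated region. The share falls from 83.8% to 9.09% over all genes, and the dashed line marks 42.6%.

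The CpG ratio went along with gene order and length within the members. Of those with a ratio below 0.2, 49.2% stood in runs of 10 or more, 13.5% stood alone, the median gene length was 4.42 kb and 6.49% had a body row. Of the 544 members with a ratio of 0.8 or more, 8.09% stood in such runs and 27.9% alone, the median length was 37.7 kb and 19.1% had a body row. The median distance to the nearest row did not follow the ratio in 1 direction, with 80.9, 33.4, 34.1, 38.6 and 49.5 kb over the 5 classes from the lowest ratio to the highest.

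CpG-rich starts without a peak numbered 1196, defined by a ratio of at least 0.6 and a GC content of at least 50%, which is 12.6% of the 9518 genes with such a start. Named genes were 85.2% of them, and 246 (20.6%) had a row in the body. After B3galnt1 and Fam169a the highest ratios belonged to Jph3, a junctophilin of neurons (1.23), Rasgef1c (1.18) and Mark1, a microtubule affinity kinase (1.18), whose starts were 37.7, 13.6 and 90.6 kb from the nearest peak. Jph3 had 4 and Rasgef1c 5 H3K27ac rows in the body. Of all members 13.1% had such a start. By prefix the largest counts were 24 of 143 Slc, 21 of 77 Fam and 14 of 81 Zfp members. Among the developmental prefixes examined, the share was high in Wnt (10 of 15 members), Nkx (7 of 13) and Irx (5 of 6) and lower in Hoxb (3 of 10), and it was 0 of 21 in Pcdhb. Tbx1, a T-box regulator of heart and pharynx, had 53 CpG at its start and an H3K4me3 region at 1.79 kb, with H3K27ac at 54.8 kb.

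The motif TATAAA, searched on the strand of the gene with its first base 20 to 40 bases before the start, was found in 393 members (4.31%) and 117 genes with a start peak (0.952%), and in 2.38% of all genes. It was found in 68.8% of Sprr, 56.5% of Krtap, 31.3% of Krt and 12.7% of Cyp members, but in 1.27% of Olfr and 0.307% of Vmn members, whose starts are often not annotated upstream of the coding sequence. Anywhere in the 300 bases on either strand, TATAAA was found in 22.3% of members, 6.99% of genes with a start peak and 13.5% of all genes. The motif CCCNNGGG, which reads the same on both strands and is the core of the site bound by the B lineage factor Ebf1, was found in 12.0% of members, 17.8% of genes with a start peak and 15.3% of all genes. The fixed bases of CCCNNGGG are all C or G, and the median GC content was 48.3% in members and 61.0% in genes with a start peak. How far base content accounts for these shares was not tested. A match is a match of letters only.

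Alignability limits part of the set. A start was called alignable when at least 90% of the 32-base words in the 1 kb on either side occur at no more than 3 places in the genome. The methods of the study give this limit of positions for its uniform processing, but the alignment settings behind the deposited lists and the read length are not given in the sources used here, so the measure describes sequence uniqueness rather than the reads. This held for 81.3% of the members and 95.4% of genes with a start peak. Fewer than 50% of the words passed for 647 members (7.09%) and 58 genes with a start peak, and 469 of the 647 were Gm models, 76 were Vmn and 15 of the 21 Mup genes were among them, but only 1 was an Olfr gene. Of the 19146 genes with an alignable start 7419 (38.8%) lacked a start peak, and of the 705 with fewer than 50% of words passing, 91.8% did.

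Leaving out a list shows how far each one defines the set. With H3K27ac alone 50.2% of genes would lack a start peak, with H3K4me3 alone 46.4% and with Pax5 alone 61.0%. All 3 lists met at a start of 7652 genes, H3K27ac with H3K4me3 at 2305, H3K4me3 alone at 1043 and H3K27ac alone at 601. Pax5 alone lay at 105 genes, so that removing the Pax5 list would add only these to the 9125.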

How the data were processed

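H3K27ac, H3K4me3 and Pax5 ChIP-seq lists of pre-B cells were used, 1 library each. Per the submitters' processing notes the reads were aligned to mm9 with Bowtie 0.12.9 and peaks were called with MACS 1.4.2; read length is not given in the sources used here. The deposited H3K27ac (69345 rows) and Pax5 (15445 rows) lists give a score per peak from the authors' caller, which served to describe rows and to take the higher-scoring 50%. The Pax5 list used is the one named confident. How its cutoff compares with that of the H3K27ac list is unknown, so values by list may rest on unlike cutoffs. The deposited H3K4me3 list holds other values than scored peaks, namely 782636 bins of 25 bp, and touching bins were joined into 23237 regions; the threshold for a bin and the settings behind the other lists are not given in the sources used here. Starts are those of all GENCODE M1 transcripts, gene order is by position, and a row counted in a body if it overlapped the gene by 1 bp or more and lay over 1 kb from its starts. The calling of members, distances, bodies and sequence features was tested on simulated data. The members, the 24 gene lists and the rules were chosen with earlier results of these data known. Named were the 10 largest prefixes, the 5 longest runs, the members with most or highest body rows, the 5 highest CpG ratios, the 5 genes on either side of 1 kb, the 5 farthest and the listed genes; the other genes, prefixes and runs were chosen after their values were seen. The printed Olfr, Vmn and Slc starts were restricted to genes with an annotated 5′ untranslated region, and the Sprr start to genes with TATAAA, which the original rule did not ask for. Sequences of some other starts are not reported here. Alternatives changed the window, the lists, the starts and the genes counted. Python 3.11.15, numpy 2.4.6, numba 0.67.0 and matplotlib 3.10.9 were used.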

Additional observations from a re-analysis of the deposited data

How the results depend on the processing

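The number of genes without a start peak stayed within 1.5 times 9125 under all 14 alternatives. It lay between 6846 of 17975 genes (without Gm, Rik and clone names) and 10168 of 21418 (without the H3K4me3 list). Some alternatives counted other totals, as with 7419 of 19146 genes with an alignable start and 9697 of 22367 on all chromosomes. Their numbers also move with the total and cannot be set directly against 9125. The shares moved as follows. The share with a body peak, 11.4%, was 12.5% with a window of 500 bp, 9.84% with 2 kb, 7.36% with 5 kb, 8.38% with the higher-scoring 50% of H3K27ac and Pax5 rows, 7.55% without H3K27ac, 12.8% without H3K4me3, 10.3% without Pax5, 12.5% with starts of protein-coding transcripts, 16.3% with the start of the longest one, 13.01% for genes with an alignable start, 12.96% for named genes and 10.4% without rows at other genes' starts. The share in runs, 31.7%, was 24.9% for genes with an alignable start and 29.6% for named genes, and 46.3% or 22.0% when runs of 5 or 20 counted. The CpG-poor share, 71.6%, was 65.6% without H3K4me3, 69.0% for genes with an alignable start, 70.0% for named genes, 85.1% with a limit of 0.6 and 78.5% with 1 kb either side. An alternative chosen after seeing the data, genes with a 5′ untranslated region only, gave 6910 of 18784 genes and shares of 13.7%, 22.5% and 67.4%. No paired analysis was possible because there is a single library behind every list. Unknown depth limits all absences.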
